A study of Mus musculus with 16 samples.

Results

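Nucleotide sugar synthesis and Golgi import was examined as a module of 36 genes, out of 45513 genes counted. The genes were chosen by name for their function, with earlier results of these data known, and matched by gene identifier in all 16 libraries. The libraries came from the colon of 8 mice of the genotype Atoh1(WT)CreERT2 R26RtdTom, in which the inducible Cre recombinase is made from the Atoh1 locus and Cre turns on the tdTomato reporter in Atoh1-expressing cells and, permanently, in their descendants. Every mouse received 1 mg of tamoxifen daily over 3 days, per the labels. Live EpCAM+ cells, the epithelial fraction, were separated by reporter signal, so that every mouse gave a tdTom+ and a tdTom- library, each group held 8, and the alleles and treatment were shared by both. The study's methods describe its animals as mice of both sexes on a C57BL/6 background, aged 8 to 16 weeks, and do not give an age for single mice. They give the Atoh1 allele as homozygous and, for this comparison, the reporter as heterozygous. The comparison asks which genes separate the tdTom+ from the tdTom- cells of the sorted colonic epithelium.

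Glycans are built in the endoplasmic reticulum and Golgi from activated sugars, most of which are made in the cytosol by coupling a sugar phosphate to a nucleotide. UDP-GlcNAc and UDP-GalNAc, UDP-galactose, CMP-sialic acid and GDP-fucose are the donors from which O-linked mucin glycans are assembled, and PAPS donates the sulfate. Antiporters of the Slc35 family carry these donors across the membrane in exchange for the spent nucleotide. Goblet cells, the mucus-secreting cells of the colon, are known for heavily O-glycosylated Muc2 mucin, whereas UDP-glucuronic acid, made by Ugdh, is also the donor for glucuronidation of steroids, bilirubin and foreign compounds.

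Total counts ranged from 16482530 to 24218367 in tdTom+ libraries and from 18318172 to 45791503 in tdTom- libraries, the largest being the tdTom- library of mouse 4. No library of a group differed from another by as little as sampling noise. The label was checked against its driver: Atoh1 averaged 132 ± 19.3 CPM (counts scaled to library size; SD, n = 8) in tdTom+ cells, against 5.70 ± 1.67 CPM in the tdTom- libraries. All 8 goblet markers were called higher in tdTom+ cells, with a summed level of 49300 to 104800 CPM against 2243 to 8750 CPM. All 6 absorptive markers were called lower, at 263 to 524 CPM against 5209 to 10300 CPM, and all 6 enteroendocrine markers were called lower, at 282 to 749 CPM against 1365 to 3996 CPM. Of 4 tuft markers tested 2 were called lower, and the 5 listed summed to 42.0 to 91.3 CPM against 73.2 to 123.9 CPM. Of 3 stem and cycling markers 1 was called lower, at 267 to 501.0 CPM against 362 to 709 CPM. The immune list was at 5.94 to 12.4 CPM in tdTom+ and 10.3 to 34.7 CPM in tdTom- cells, and the stromal and endothelial list reached at most 1.48 and 3.36 CPM. The 3 epithelial markers summed to 2541 to 2874 CPM in tdTom+ and 3170 to 3541 CPM in tdTom- cells. These are bulk libraries, so for every gene below fewer cells of a type and less RNA per cell cannot be told apart. Mitochondrial genes took 2.23% to 6.92% of the counts in tdTom+ and 3.74% to 9.97% in tdTom- libraries, and less in the tdTom+ library of 8 of 8 mice. The part of the marker sums and of the mitochondrial share in each gene's value was not tested.

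Of the 36 genes, 35 passed the filter on low counts and were tested. In tdTom+ cells 24 were called higher and 7 lower at a Benjamini-Hochberg adjusted p under 0.01 in edgeR's quasi-likelihood test, and 4 were not called. Among all 15841 genes tested 25.5% were called higher and 25.5% lower, or 51% in either direction, so a single call is common here, while the share of the module called higher was 68.6% and the share called lower 20%. The median log2 fold change was 0.82 over the 35 genes and 0.0039 over all genes tested. Because the members were chosen with earlier results of these data known, these shares and medians describe the module and are no test of it. Every tdTom+ library lay above every tdTom- library for 22 of the genes, against 15.2% of all genes tested, and every tdTom+ library lay below for 7, against 15.3%. The 36 genes together took 0.816% to 1.04% of the counts of a tdTom+ library and 0.518% to 0.596% of those of a tdTom- library, ranges that do not overlap. The mouse numbers fall into series, with mouse 4 alone in its own. With mice 1 to 3 only 22 genes were called higher and 7 lower, with mice 5 to 8 only 23 and 7, and without mouse 4 23 and 7. Over all genes tested, mice 1 to 3 only gave 2546 higher and 2559 lower of 16000. Without mouse 4 there were 4177 and 3812 of 15851. Over all 17 alternatives, mice 5 to 8 only among them, 2546 to 4918 genes were called higher and 2559 to 4843 lower.

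**Figure D1:**
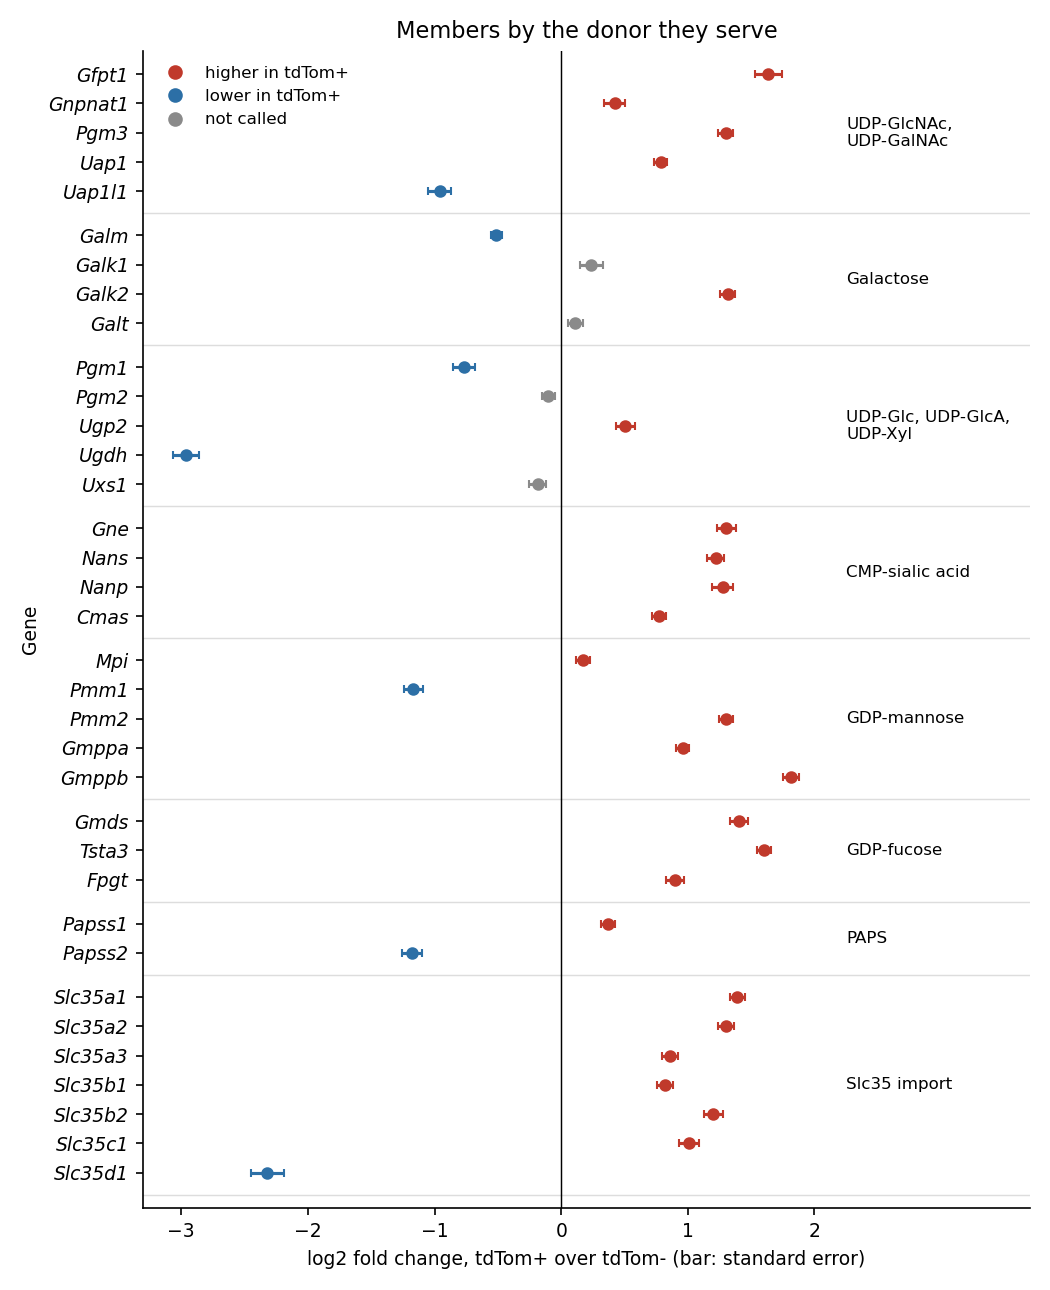
Log2 fold change of tdTom+ over tdTom- cells (x axis, edgeR fit to 8 libraries per group) for the 35 genes tested (y axis), grouped by the donor they serve; bars are standard errors. All genes for CMP-sialic acid and GDP-fucose lie to the right of 0, and the farthest to the left are Ugdh at -2.96 and Slc35d1 at -2.32.

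The promoter windows of 28 of the 36 genes were found in RefSeq (GRCm38.p6), each running from 250 bases before to 50 bases after the gene start. Among the 3 genes with the largest increases a window was found for Gfpt1 only, and it is shown with that of Ugdh, the gene with the largest decrease. Uap1 and Papss1 are shown because theirs are the ones that hold TGACGTG; these and Ugdh were chosen after the values were seen. Capitals mark the matches, and sequences are written 5′ to 3′ in the direction of the gene. The windows are chr6:87042596-87042895 (plus strand) for Gfpt1, chr5:65435793-65436092 (minus) for Ugdh, chr1:170174915-170175214 (minus) for Uap1 and chr3:131564518-131564817 (plus) for Papss1.
Gfpt1: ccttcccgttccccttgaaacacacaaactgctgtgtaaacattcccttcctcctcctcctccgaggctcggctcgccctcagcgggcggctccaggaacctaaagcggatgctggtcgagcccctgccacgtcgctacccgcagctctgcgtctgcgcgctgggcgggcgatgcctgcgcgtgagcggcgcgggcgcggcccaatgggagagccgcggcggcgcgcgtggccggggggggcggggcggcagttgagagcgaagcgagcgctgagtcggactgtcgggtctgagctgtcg
Ugdh: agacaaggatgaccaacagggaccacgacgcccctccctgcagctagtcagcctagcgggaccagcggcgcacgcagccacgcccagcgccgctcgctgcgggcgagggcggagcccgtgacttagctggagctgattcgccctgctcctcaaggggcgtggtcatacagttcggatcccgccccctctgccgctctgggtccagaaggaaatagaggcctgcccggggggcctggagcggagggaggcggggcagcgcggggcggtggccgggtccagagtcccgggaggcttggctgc
Uap1: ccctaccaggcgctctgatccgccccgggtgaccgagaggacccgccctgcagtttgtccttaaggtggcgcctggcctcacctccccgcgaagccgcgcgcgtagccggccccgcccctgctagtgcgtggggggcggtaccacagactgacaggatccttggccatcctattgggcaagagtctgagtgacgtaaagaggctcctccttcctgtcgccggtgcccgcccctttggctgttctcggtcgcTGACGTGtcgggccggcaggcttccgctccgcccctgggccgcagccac
Papss1: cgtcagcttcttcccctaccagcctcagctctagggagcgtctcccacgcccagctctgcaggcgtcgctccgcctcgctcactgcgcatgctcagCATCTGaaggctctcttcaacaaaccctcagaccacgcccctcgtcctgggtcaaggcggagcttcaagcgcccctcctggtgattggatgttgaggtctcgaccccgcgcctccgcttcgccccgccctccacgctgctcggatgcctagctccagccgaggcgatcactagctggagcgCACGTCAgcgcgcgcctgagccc

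Motifs were searched on both strands. TGACGTG, which holds the ACGT core that factors of the unfolded protein response are known to bind, was in the windows of Uap1 and Papss1, 2 of 18 genes called higher, and in those of 2.22% of all 27025 genes with a window. In Papss1 it reads CACGTCA, on the other strand. The E-box CAGCTG was found for 4 of the 18 genes called higher (Galk2, Ugp2, Gne and Cmas), for 1 of 5 called lower (Pmm1) and for 18.3% of all genes. The E-box CAGATG was found for 2 of the 18 (Ugp2 and Papss1, in both as CATCTG), for 0 of 5 called lower and for 19.2% of all genes. CCAAT followed by CCACG after 9 bases, the endoplasmic reticulum stress element, was in no window of these genes and in 0.137% of all. Gfpt1 and Ugdh, which moved in opposite directions, held none of these letters in the windows shown. A match is a description of the sequence and no evidence of binding. The windows of both sets were rich in G and C, with a median of 61.3% for genes called higher and 67.2% for genes called lower, against 52.7% over all windows.

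The hexosamine pathway, which leads from fructose 6-phosphate to UDP-GlcNAc, was higher in tdTom+ cells at 4 of the 5 genes tested. Of all genes tested 25.5% were called higher. Gfpt1 (chr6:87042846-87092197), the glutamine-dependent amidotransferase that commits carbon to the pathway, ranged from 1671 to 2549 CPM with a median of 2185 in tdTom+ libraries, and from 515 to 813 CPM with a median of 710 in tdTom- libraries. The groups did not overlap, and the tdTom+ level was 3.11-fold higher (log2 fold change 1.64 ± 0.11 SE, adjusted p = 3.62e-11). Per kilobase of exon Gfpt1 was the most abundant gene of the module in tdTom+ cells, at 290.8 ± 45.3 RPKM (SD, n = 8).

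Pgm3, the mutase that turns GlcNAc 6-phosphate into GlcNAc 1-phosphate, ranged from 90.8 to 111 CPM (median 103) in tdTom+ and from 36.9 to 47.3 CPM (median 40.8) in tdTom- libraries. All tdTom+ libraries were above all tdTom- libraries, by 1.30 ± 0.06 on the log2 scale (SE). Uap1, the pyrophosphorylase that makes UDP-GlcNAc and UDP-GalNAc, ranged from 287 to 322 CPM (median 304) against 160.1 to 186 CPM (median 181), again without overlap, with a log2 fold change of 0.79 ± 0.05. Gnpnat1, the acetyltransferase between Gfpt1 and Pgm3, had the smallest change of the pathway that passed the test, a log2 fold change of 0.42 ± 0.08. It was higher in 8 of 8 mice, but the groups overlapped, at 85.2 to 123 CPM against 70.0 to 97.7 CPM.

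Uap1l1, a protein similar to Uap1, ranged from 13.7 to 17.1 CPM (median 15.8) in tdTom+ and from 23.3 to 35.3 CPM (median 31.3) in tdTom- libraries. It was lower in all 8 mice, with no overlap and a log2 fold change of -0.96 ± 0.09. Gfpt2, the second amidotransferase, had few counts and did not pass the filter on low counts. Its counts ran from 2 to 18 per tdTom+ library and from 1 to 3 per tdTom- library, or 0.113 to 0.919 CPM (median 0.385) against 0.0389 to 0.157 CPM (median 0.0524). Pooled over libraries and set against library size, its 64 tdTom+ and 13 tdTom- counts gave a ratio of 5.76 with an exact 95% interval of 3.14 to 11.4, which covers counting error only. In 8 of 8 mice its tdTom+ level exceeded the tdTom- level, and without the filter it was called higher (log2 fold change 2.45 ± 0.44 SE, adjusted p = 5.01e-05), a fitted value that depends on the few tdTom- counts. At a mean of 0.0735 RPKM in tdTom+ cells it was the least abundant gene of the module in both populations.

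CMP-sialic acid synthesis was higher throughout: all 4 genes were called higher in tdTom+ cells, with no overlap between the groups for any. Among all genes tested 25.5% were called higher, and 15.2% had every tdTom+ library above every tdTom- library. Gne, the bifunctional epimerase and kinase that begins the pathway from UDP-GlcNAc, ranged from 814 to 1079 CPM (median 910) in tdTom+ and from 313 to 427 CPM (median 383) in tdTom- libraries, a log2 fold change of 1.31 ± 0.08 (adjusted p = 8.25e-12). Nans, the synthase that condenses ManNAc 6-phosphate with phosphoenolpyruvate, had a log2 fold change of 1.22 ± 0.07, and Nanp, the phosphatase that follows, one of 1.28 ± 0.08. Nanp was the scarcest of the set, at 16.2 to 22.02 CPM against 5.92 to 8.31 CPM. Of its exon bases 9.8% overlap Ninl on the same strand, where reads cannot be assigned. Cmas, which activates sialic acid with CTP in the nucleus, had the smallest difference of the 4, a log2 fold change of 0.77 ± 0.06.

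GDP-fucose synthesis was likewise higher at all 3 genes, without overlap, beside the same 25.5% and 15.2% of all genes tested. Gmds, the dehydratase that begins the conversion of GDP-mannose, ranged from 595 to 782 CPM (median 641) in tdTom+ and from 207 to 290.4 CPM (median 248) in tdTom- libraries, with a log2 fold change of 1.40 ± 0.07. Tsta3, the epimerase and reductase that completes it, ranged from 254 to 294 CPM (median 269.8) against 81.6 to 101 CPM (median 88.7). That was 3.04-fold higher in tdTom+ cells (log2 fold change 1.60 ± 0.05, adjusted p = 1.91e-15). Fpgt, the pyrophosphorylase of the salvage route from free fucose, had a log2 fold change of 0.90 ± 0.07 and far lower levels, 9.06 ± 1.17 RPKM in tdTom+ cells against 206 ± 10.6 RPKM for Tsta3.

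**Figure D2:**
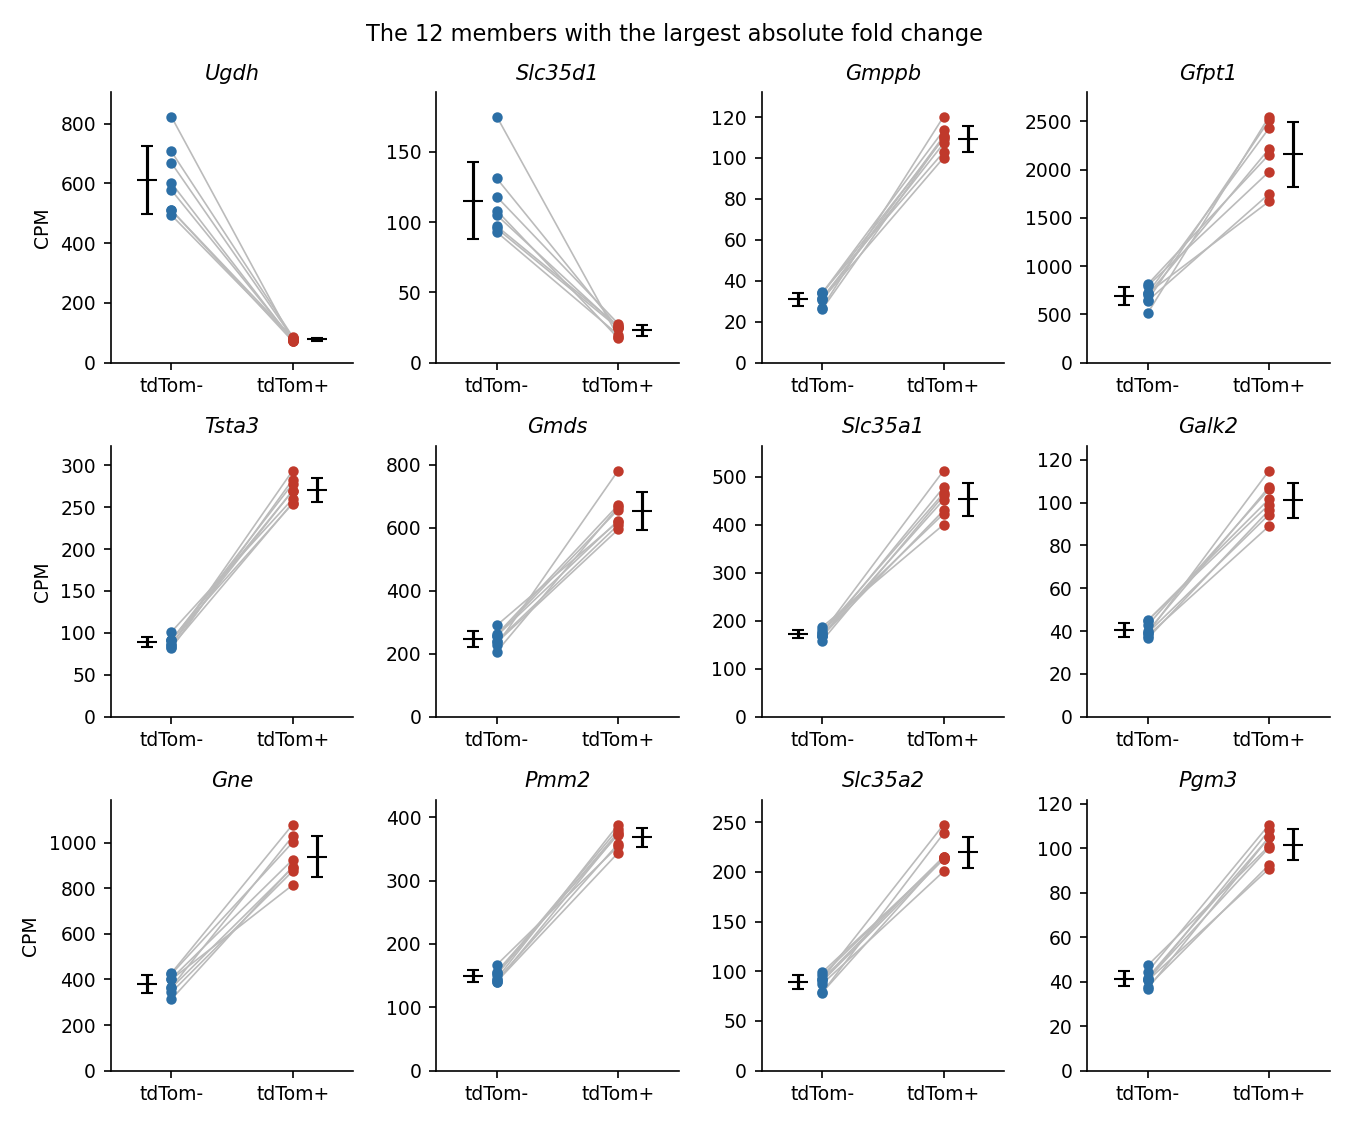
CPM (y axis, from 0) in tdTom- and tdTom+ cells for the 12 genes called with the largest absolute fold change; a point is a library, a line joins the libraries of a mouse, and the bar beside the points is the mean ± SD of 8 libraries. The populations do not overlap in any panel, for genes picked by the size of their change. Among all genes tested 15.2% lay wholly above and 15.3% wholly below. Only Ugdh and Slc35d1 fall from tdTom- to tdTom+.

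GDP-mannose synthesis was higher at 4 of 5 genes, against 25.5% of all genes tested, and its mutases split. Gmppb (chr9:108049242-108052801), the catalytic subunit of GDP-mannose pyrophosphorylase, had the largest increase of the module. It ranged from 100.1 to 120.2 CPM (median 109.9) in tdTom+ and from 26.2 to 34.4 CPM (median 31.3) in tdTom- libraries, 3.52-fold higher in tdTom+ cells (log2 fold change 1.82 ± 0.06, adjusted p = 2.50e-15). Another annotated gene on the same strand overlaps 4.0% of the Gmppb exon bases. Gmppa, the regulatory subunit of the same enzyme, ranged from 106 to 122 CPM (median 115) against 52.4 to 64.1 CPM (median 58.8), a log2 fold change of 0.96 ± 0.05. Neither subunit overlapped between groups, and Gmppb had the larger increase in each of 8 mice.

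Pmm2, the main phosphomannomutase, ranged from 344 to 388 CPM (median 373) in tdTom+ and from 140.3 to 167 CPM (median 148) in tdTom- libraries. Its paralog Pmm1 went the other way, from 31.8 to 39.8 CPM (median 38.2) in tdTom- to 13.2 to 18.8 CPM (median 15.8) in tdTom+ libraries. Neither gene overlapped between the groups, with log2 fold changes of 1.30 ± 0.05 for Pmm2 and -1.17 ± 0.08 for Pmm1. Per length Pmm2 was the more abundant in both populations, at 81.6 ± 3.34 against 5.84 ± 0.701 RPKM in tdTom+ cells and at 33.1 ± 2.06 against 13.1 ± 1.21 RPKM in tdTom- cells. Mpi, the isomerase that joins fructose 6-phosphate to mannose 6-phosphate, was just past the threshold (log2 fold change 0.17 ± 0.05, adjusted p = 0.00999). It was higher in 6 of 8 mice, the groups overlapped at 84.7 to 93.2 CPM against 68.4 to 89.8 CPM, and the call was lost with either other normalization (RLE, upper quartile), either other filter on low counts and mice 1 to 3 only, with adjusted p of 0.0119 to 0.0622, and with mice 5 to 8 only (log2 fold change 0.06, adjusted p = 0.384). Leaving out mouse 1, 3, 4, 5 or 7 also lost it, with log2 fold changes of 0.15 to 0.18.

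Of the 4 genes of galactose entry 1 was called higher and 1 lower, close to the 25.5% of all genes tested in each direction. Galk2, which phosphorylates GalNAc for salvage, ranged from 89.1 to 115 CPM (median 100.4) in tdTom+ and from 36.6 to 45.0 CPM (median 39.5) in tdTom- libraries, without overlap (log2 fold change 1.31 ± 0.06). Galk1, the galactokinase proper, ranged from 23.3 to 37.2 CPM (median 33.3) against 23.2 to 31.1 CPM (median 27.6), and the groups overlapped. It was not called (log2 fold change 0.24 ± 0.09, adjusted p = 0.0271), but its level was higher in 8 of 8 mice and with the mouse as a block it passed (log2 fold change 0.23, adjusted p = 0.00211). It also passed without mouse 7 (log2 fold change 0.26, adjusted p = 0.00628) and with mice 1 to 3 only (0.39, adjusted p = 0.00965), but not with mice 5 to 8 only (0.15, adjusted p = 0.268). Galt, the uridylyltransferase that makes UDP-galactose from galactose 1-phosphate, was not called (log2 fold change 0.11 ± 0.06, adjusted p = 0.113). Galm, the mutarotase at the start of galactose breakdown, was lower without overlap (log2 fold change -0.51 ± 0.05).

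The branch from glucose 6-phosphate through UDP-glucose to UDP-glucuronic acid and UDP-xylose held the largest decrease. Ugdh (chr5:65413221-65435949), the dehydrogenase that makes UDP-glucuronic acid, ranged from 71.9 to 87.0 CPM (median 77.9) in tdTom+ libraries and from 494 to 823 CPM (median 589) in tdTom- libraries. Its tdTom- level was 7.79-fold the tdTom+ level (log2 fold change -2.96 ± 0.10, adjusted p = 2.17e-15), and the lowest tdTom- library lay far above the highest tdTom+ library. Of its exon bases 2.3% overlap another annotated gene on the same strand.

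Around Ugdh the steps moved less. Ugp2, which makes UDP-glucose, was higher in tdTom+ cells (log2 fold change 0.51 ± 0.08), at 218 to 293 CPM against 162 to 205 CPM. Uxs1, which makes UDP-xylose from UDP-glucuronic acid, was not called (log2 fold change -0.19 ± 0.07, adjusted p = 0.0197) and was lower in 7 of 8 mice. Without mouse 7 it passed (log2 fold change -0.22, adjusted p = 0.00879). Pgm1 (ENSMUSG00000025791), the phosphoglucomutase that links glucose 6-phosphate and glucose 1-phosphate, ranged from 46.3 to 67.2 CPM (median 61.2) in tdTom+ and from 85.8 to 124 CPM (median 97.6) in tdTom- libraries, lower without overlap (log2 fold change -0.77 ± 0.09). Pgm2 (ENSMUSG00000029171), a related mutase that also acts on pentose phosphates, ranged from 94.2 to 114 CPM (median 99.7) against 97.1 to 117 CPM (median 111) and was not called (log2 fold change -0.10 ± 0.05, adjusted p = 0.0937). Older sources exchange these symbols, so the identifiers are given.

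The PAPS synthases also split. Papss2 ranged from 168 to 246 CPM (median 202) in tdTom+ and from 411 to 522 CPM (median 451) in tdTom- libraries, lower without overlap (log2 fold change -1.18 ± 0.08, adjusted p = 4.01e-11). Papss1 ranged from 186 to 234 CPM (median 202) against 140.2 to 168 CPM (median 160.2), higher without overlap (log2 fold change 0.37 ± 0.06). Both enzymes make PAPS from ATP and sulfate. In tdTom- cells Papss2 was the most abundant gene of the module per length, at 125 ± 10.4 RPKM against 52.1 ± 3.01 for Papss1. In tdTom+ cells the levels were 55.3 ± 7.07 and 67.2 ± 5.19 RPKM.

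Of the 7 Slc35 carriers 6 were higher in tdTom+ cells and 1 was lower, none with overlap. Over all genes tested 25.5% were called in each direction, and 15.2% lay wholly above and 15.3% wholly below. Slc35a1, the carrier for CMP-sialic acid, ranged from 401 to 513 CPM (median 457) in tdTom+ and from 159 to 187 CPM (median 172) in tdTom- libraries, a log2 fold change of 1.39 ± 0.06. Slc35a2, the carrier for UDP-galactose, ranged from 200.5 to 248 CPM (median 215) against 78.6 to 99.0 CPM (median 90.9), a log2 fold change of 1.30 ± 0.06. The other increases were those of Slc35b2, a PAPS carrier, at 1.20 ± 0.08, Slc35c1, the GDP-fucose carrier, at 1.01 ± 0.08, Slc35a3, a UDP-GlcNAc carrier, at 0.86 ± 0.06, and Slc35b1, an endoplasmic reticulum carrier, at 0.82 ± 0.06 on the log2 scale. Another annotated gene on the same strand overlaps 2.5% of the Slc35a3 exon bases.

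Slc35d1 (chr4:103170649-103215164), which carries UDP-glucuronic acid and UDP-GalNAc into the endoplasmic reticulum, was the exception. It ranged from 17.5 to 27.7 CPM (median 24.7) in tdTom+ libraries and from 92.8 to 175 CPM (median 107) in tdTom- libraries. The tdTom- level was 4.996-fold the tdTom+ level (log2 fold change -2.32 ± 0.13, adjusted p = 2.69e-12). Ugdh and Slc35d1, which make and carry UDP-glucuronic acid, were thus the genes of the module with the largest decreases. Both had their highest tdTom- value in mouse 2, as had Papss2 and Pgm1, 4 of the 7 genes called lower in all. In the same libraries the 6 absorptive markers had log2 fold changes of -5.18 to -4.15.

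**Figure D3:**
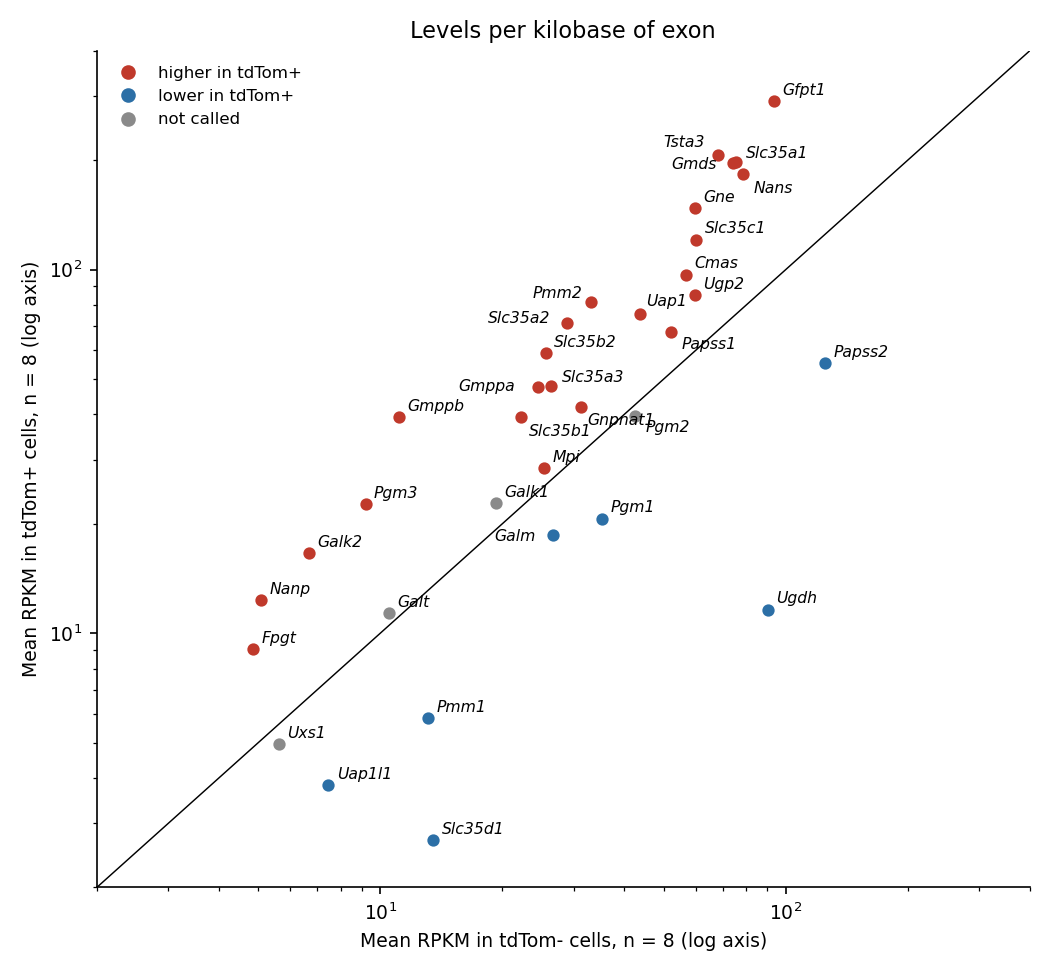
Mean RPKM in tdTom+ cells (y axis) against mean RPKM in tdTom- cells (x axis), both log axes, n = 8 libraries each, for 35 genes; the line marks equal levels and Gfpt2 falls outside the range drawn. Ugdh lies farthest below the line, and Gfpt1 is the highest gene in tdTom+ cells.

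Ordered by level per kilobase, the module looked different in the populations. In tdTom+ cells Gfpt1 was followed by Tsta3 at 206 ± 10.6, Slc35a1 at 198 ± 15.4, Gmds at 197 ± 17.8 and Nans at 183 ± 10.04 RPKM, of which neighbours differ by less than their added SDs. In tdTom- cells Papss2 led at 125 ± 10.4, followed by Gfpt1 at 93.5 ± 12.8 and Ugdh at 90.5 ± 17.0 RPKM, of which the latter are closer than their spread. Ugdh stood at rank 29 in tdTom+ cells with 11.6 ± 0.801 RPKM, and Papss2 at rank 15. Slc35d1 was last but Gfpt2 in tdTom+ cells, with 2.70 ± 0.451 RPKM.

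The paralogs were compared within mice, by subtracting the log2 ratio of tdTom+ to tdTom- of the second gene from that of the first. An exact two-sided sign-flip permutation test over 8 mice, which can go no lower than p = 0.0078, was run for 7 pairs, with Benjamini-Hochberg adjustment over them and a threshold of 0.05. Pmm1 minus Pmm2 was -2.47 ± 0.254 (SD, n = 8), Uap1 minus Uap1l1 1.74 ± 0.255 and Papss1 minus Papss2 1.55 ± 0.251. In each of these pairs the genes were called in opposite directions. Galk1 minus Galk2 was -1.08 ± 0.182, Gmppa minus Gmppb -0.86 ± 0.166 and Pgm1 minus Pgm2 -0.66 ± 0.260. These 6 differences had the same sign in 8 of 8 mice, and each had the smallest p the permutations can give (exact p = 0.0078, adjusted p = 0.00912). Gfpt1 minus Gfpt2 was 0.16 ± 1.00, positive in 4 mice and negative in 4 (exact p = 0.664), and with so few Gfpt2 counts a difference was not detectable at this depth.

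**Figure D4:**
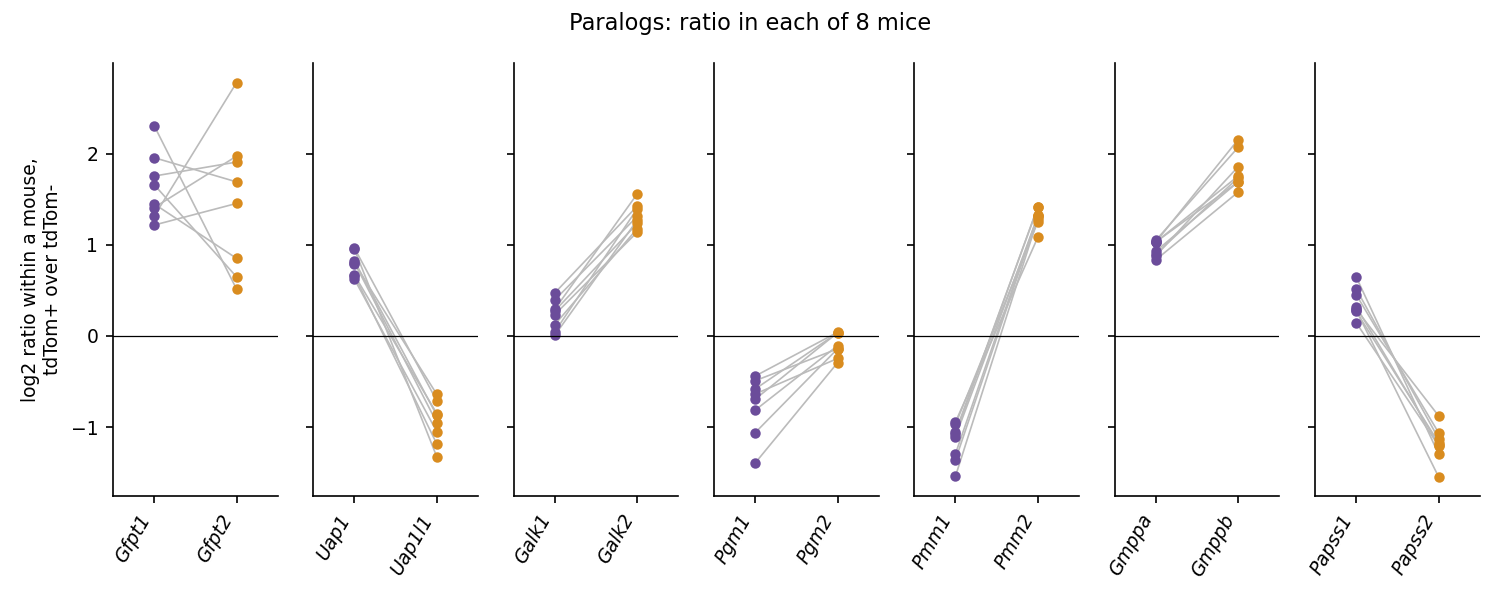
Log2 ratio of tdTom+ to tdTom- within a mouse (y axis, log2 CPM with a prior count of 2) for the genes of 7 paralog pairs, the first gene of a pair in purple and the second in orange; each point is a mouse and lines join its values. Uap1 and Uap1l1, Pmm1 and Pmm2, and Papss1 and Papss2 lie on opposite sides of 0 in all 8 mice.

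The mice varied little. Leaving out Gfpt2, the coefficient of variation between libraries had a median of 8.12% in tdTom+ and 8.30% in tdTom- cells and reached 16.7% and 23.6%. In tdTom+ cells the library of mouse 1 was the highest of the 8 for 14 of 35 genes, and that of mouse 3, the library with the fewest counts, was the lowest for 13. The median log2 ratio within a mouse lay between 1.01 and 1.35 for the genes called higher and between -1.40 and -0.94 for those called lower. Both sets were called from these same libraries, so the signs of the medians were set by that choice. Single genes could spread more, Gfpt1 from 1.22 to 2.31 and Slc35d1 from -3.24 to -1.88.

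Other genes of the same pathways were taken from a list of 30, of which 28 were tested, 14 were called higher and 9 lower, against 25.5% of all genes tested in each direction, with a median log2 fold change of 0.31. The genes named from it were chosen after their values were seen. Cmah, which hydroxylates CMP-sialic acid, had the largest increase of the list, a log2 fold change of 3.80 ± 0.27 (SE), with its lowest tdTom+ library at 67.2 and its highest tdTom- library at 16.4 CPM. Entpd4, a Golgi enzyme that clears spent UDP, rose by 1.70 ± 0.14 on the log2 scale, Impad1, which clears spent PAP, by 1.11 ± 0.08 and Fuk, the fucose kinase that feeds Fpgt, by 0.87 ± 0.06. Among the decreases were Slc26a2, a sulfate transporter, at -1.82 ± 0.11, and the hexokinase-related Hkdc1 at -4.21 ± 0.21. Of the transferases that spend the donors 19 of 24 were called higher (79.2%) and 3 lower (12.5%), against 25.5% of all genes tested in each direction. Their median log2 fold change was 1.96 beside 0.0039 over all genes tested. That list was drawn up with earlier results of these data known and holds no enzyme that spends UDP-glucuronic acid or UDP-xylose. Its sialyltransferases, which spend CMP-sialic acid, went different ways. St6galnac2 was called higher (log2 fold change 0.77 ± 0.08) and St3gal1 lower (-1.48 ± 0.21), while St3gal4 (-0.59 ± 0.19) and St6galnac1 (0.49 ± 0.27) were not called.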

How the data were processed

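RNA was sequenced from EpCAM+ tdTom+ and EpCAM+ tdTom- cells of 8 mouse colons. Stranded mRNA libraries were aligned by the authors with TopHat2 2.1.1 to GRCm38.p3, and the deposited values are raw counts per gene from featureCounts on exons (1.5.0-p1 per the file headers, Subread 1.5.2 per the processing notes), from primary alignments on the reverse strand. Reads in exons that genes of the same strand share are left uncounted, and near-identical stretches of paralogs may lose reads.

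Groups came from the labels. The test was edgeR's (4.0.16; R 4.3.3) quasi-likelihood F test after filterByExpr and TMM, through glmQLFit and glmQLFTest without a mouse term (Benjamini-Hochberg adjusted p under 0.01 over 15841 genes). CPM used TMM library sizes, log2 CPM a prior count of 2, and RPKM divided CPM by the exon length in the files. A standard error is the absolute log2 fold change over the root of F. Total counts set a floor of 3 counts, equal to 0.124 to 0.182 CPM in tdTom+ and 0.0655 to 0.164 CPM in tdTom- libraries, for counting error only. Fits were tested on simulated data.

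Both libraries of a mouse carry its number in the titles. Their deviations from the group means correlated at 0.223 to 0.409 within mice and at -0.0428 on average between mice, so the mouse served as a block in an alternative fit. The other alternatives were DESeq2 1.42.0, upper-quartile or RLE normalization, at least 10 counts in every sample, no filter at all, an adjusted p of 0.05, a prior count of 0.5, total counts as library sizes, each mouse left out, and mice 1 to 3 or 5 to 8 only, which are the number series of the titles. Gene symbols came from GENCODE M21 for 44671 of 45513 genes. The tamoxifen schedule is that of the labels and of the paper's methods on animals for this comparison, whereas its methods on sequencing give another.

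The members and lists were chosen with earlier results of these data known. Every member is named, with values by library for the paralogs and for the 12 called members with the largest absolute log2 fold change. Promoters were to be shown for the 3 largest increases. Genes outside the module were chosen after their values were seen.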

Additional observations from a re-analysis of the deposited data

Results flagged for a closer look

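In 6 of 72 groups of 8 libraries a sample stood apart from the other 7 by Dixon's test, where chance gives about 3.6 (1 in 20). In tdTom+ cells, Gmds was at 9.61 log2 CPM in mouse 1, against 9.22 to 9.39 in the others, and Pgm1 was at 5.54 in mouse 3, against 5.83 to 6.07. In tdTom- cells, Nanp was at 2.59 log2 CPM in mouse 2, against 2.85 to 3.07, Papss1 at 7.13 in mouse 1, against 7.27 to 7.40, and Pgm2 at 6.60 in mouse 7, against 6.76 to 6.88. By total, mouse 4 stood apart in tdTom- cells with 45791503 counts, the other libraries having 18318172 to 20668605.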

How the results depend on the processing

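The 24 and 7 members called higher and lower became 22 to 25 and 7 to 8 over 17 alternatives, with 23 to 24 and 7 to 8 when each mouse was left out. With the mouse as a replicate block 25 and 7 were called, Galk1 being added, and no other member changed its call. The call was the same under every alternative for 30 of 35 members tested. The exceptions were Mpi, Galk1 and Uxs1, and, with mice 1 to 3 only, Gnpnat1 (adjusted p = 0.0136) and Papss1 (adjusted p = 0.0262). Over all genes 4032 higher and 4042 lower became 2546 and 2559 with mice 1 to 3 only, where fewer libraries entered, 4494 and 4574 with the block, 4918 and 4843 at an adjusted p of 0.05, and 3670 to 4177 and 3700 to 3914 when each mouse was left out. The difference of Gfpt1 and Gfpt2 turned from 0.16 to -0.41 with a prior count of 0.5, and ran from -0.078, without mouse 1, to 0.39 when each mouse was left out. The cause was not tested. The other 6 paralog differences kept their sign and an adjusted p under their threshold of 0.05, at 0.00912 to 0.0182. Depth limits Gfpt2, with 1 to 3 counts per tdTom- library, which was called higher without the filter and was not fitted with it.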
